A study of Mus musculus with 82 samples.

Results

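The 9 genes described here mark B cells and the plasma cells that arise from them: Ms4a1, Cd79a, Cd79b, Pax5, Jchain, Mzb1, Pou2af1, Ighm and Igkc. They were chosen by name out of 47480 genes in the deposited count table, and all 9 were among the 22847 genes tested. RNA was measured in 82 bulk mammary tumours of untreated mice, from 13 tumour models. The BALB/c models were 2153 (n = 7), 2208 (n = 12), 2224 (n = 4), 2225 (n = 10), 2250 (n = 11), 2336 (n = 5), 4T1 (n = 5), 9263 (n = 7) and T12 (n = 3). The FVB models were MMTV-NEU (n = 8), MMTV-PYMT (n = 5) and KPB1-A (n = 2), and E0771 (n = 3) was the only C57BL/6 model, so its strain and its model cannot be told apart. 4T1 and E0771 are mouse mammary cancer cell lines, and in MMTV-NEU and MMTV-PYMT an oncogene is driven by the MMTV promoter, which is active in mammary epithelium. The labels give no age, no transplantation history and no further allele for any model.

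A B cell carries an antibody molecule on its surface, with Cd79a and Cd79b as the signalling chains of that B cell receptor. Ms4a1 encodes the surface protein CD20, and Pax5 is the transcription factor that holds the B cell identity and is switched off when a plasma cell forms. A plasma cell secretes antibody in bulk: Ighm and Igkc encode the constant parts of the mu heavy chain and the kappa light chain, Jchain joins IgM and IgA into polymers, and Mzb1 is a chaperone of the endoplasmic reticulum that helps antibody assembly. Pou2af1 encodes OBF1, a coactivator that octamer-binding POU factors recruit in B cells. In the mammary gland, plasma cells that make IgA settle near the epithelium during lactation, and the epithelial receptor Pigr carries the polymers into milk.

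The bases before the start sites of Pou2af1 and Jchain are shown because these 2 had the largest called rises among the members with a promoter entry. Of the 9 members, 4 had an entry in the RefSeq promoter table (GRCm38.p6), each read as up to 250 bases before the start. Both strands of the 4 were searched for the octamer ATTTGCAT and for the palindromic site of the B cell factor EBF1. No match was found in these windows, so no base is in capitals, and 1.60% and 0.779% of all 32851 promoters in the table held the octamer and the EBF1 site.
Pou2af1, plus strand, chr9:51213440-51213689: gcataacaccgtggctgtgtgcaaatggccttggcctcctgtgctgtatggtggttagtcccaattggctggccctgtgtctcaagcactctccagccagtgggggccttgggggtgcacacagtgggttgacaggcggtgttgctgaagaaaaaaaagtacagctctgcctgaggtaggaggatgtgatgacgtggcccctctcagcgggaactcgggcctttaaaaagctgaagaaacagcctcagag
Jchain, minus strand, chr5:88527898-88528147: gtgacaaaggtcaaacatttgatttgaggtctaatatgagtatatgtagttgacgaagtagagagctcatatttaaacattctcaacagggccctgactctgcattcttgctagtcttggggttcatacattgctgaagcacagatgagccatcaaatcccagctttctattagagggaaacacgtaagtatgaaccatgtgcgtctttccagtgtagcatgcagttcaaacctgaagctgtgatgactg

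Levels are in CPM, the deposited expected counts, rounded and scaled to a common library total with TMM factors. Library totals ran from 14.4 to 133 M counts (median 58.2 M), so that 3 counts stood for 0.0227 to 0.200 CPM, and a gene at 0 in a library may lie anywhere up to that level. The members were low for most models. The median over the 82 libraries was 0.0270 CPM for Ms4a1, 0.0763 for Mzb1, 0.0768 for Pax5, 0.195 for Jchain, 0.341 for Cd79a, 0.407 for Pou2af1, 0.429 for Cd79b, 0.494 for Igkc and 5.53 for Ighm. Ms4a1 was at 0 in 22 libraries and reached 1 CPM in none, with 302 counts in all. In bulk tumours, fewer cells of a type and less RNA per cell cannot be told apart.

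Each model was set against the unweighted mean of the other 12 models on the log2 scale by edgeR's quasi-likelihood test, with Benjamini-Hochberg adjustment over all 22847 genes. A difference was called at an adjusted p under 0.05, errors of log2 differences are standard errors, and errors of levels are SDs. All 9 members differed among the 13 models in the F test, where 98.2% of all genes did, and the adjusted p ran from 1.73e-41 for Pou2af1 to 3.57e-05 for Mzb1. Over the 13 models, 56 of 117 member differences were called. Per model, 38.7% (2224) to 62.4% (MMTV-NEU) of all genes were called in either direction, so this count is no result about the members. The members did not move as 1 group. E0771 and T12 were the 2 models in which most of them rose, MMTV-NEU stood out by its antibody genes, and Pou2af1 followed an order of its own.

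**Figure D1:**
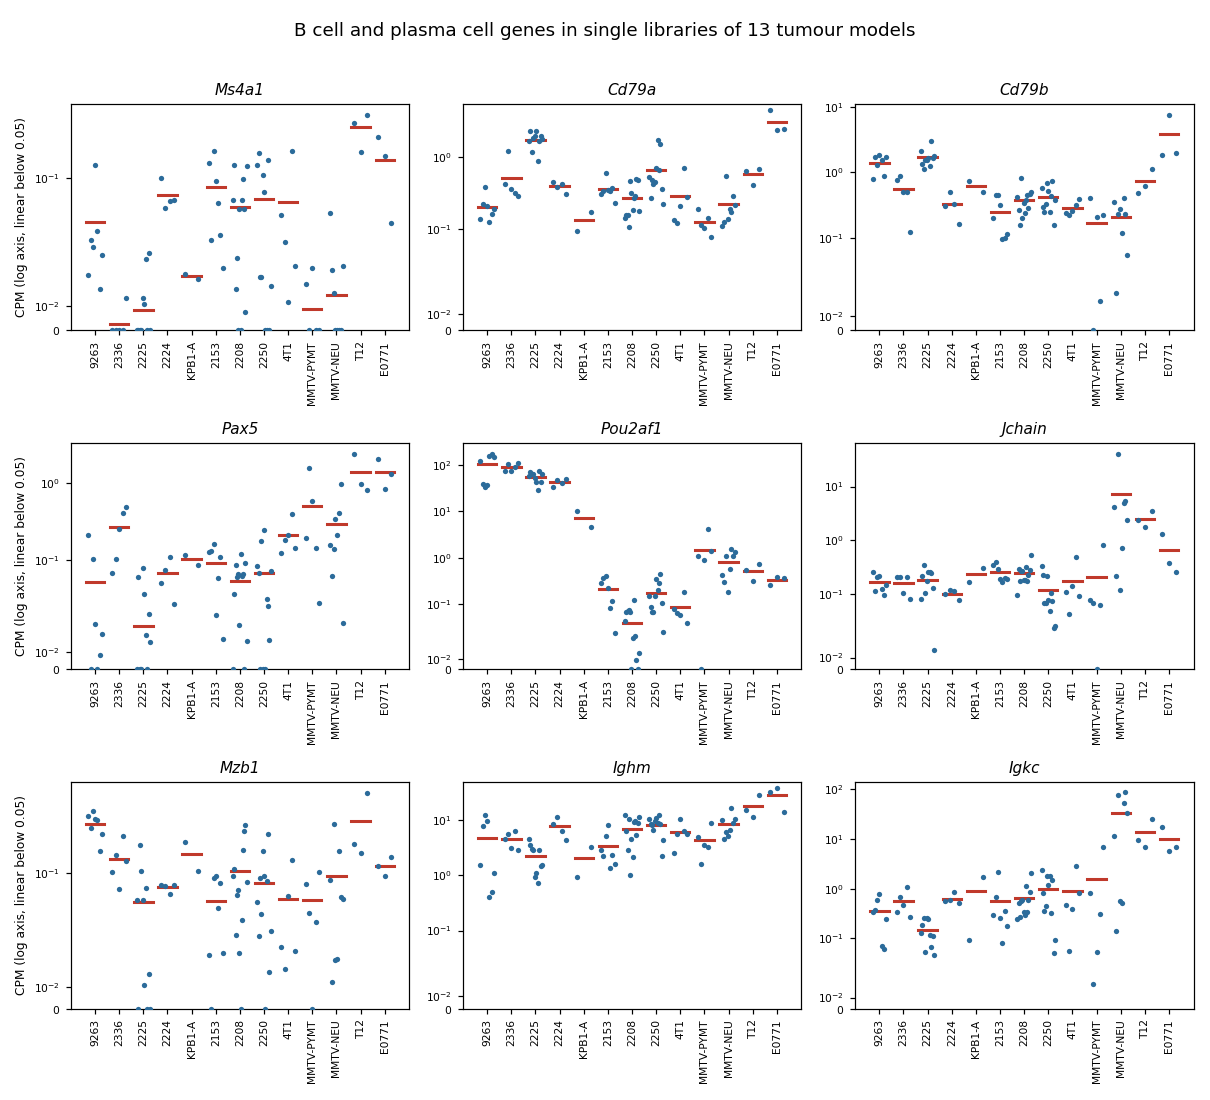
Level of each of the 9 members (CPM, log axis, linear below 0.05) in every library of the 13 models. Points are libraries and bars are model means. Pou2af1 spans 0 to 176 CPM, Ms4a1 stays at or below 0.390 CPM, and the antibody genes Igkc and Jchain spread over a wide range within MMTV-NEU.

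Ms4a1 was highest in T12 tumours, with 0.324, 0.176 and 0.390 CPM in the 3 libraries, against model means of 0.00272 to 0.148 CPM elsewhere. The difference was 3.10 ± 0.48 (adjusted p = 1.06e-07). E0771 came next with 0.239, 0.161 and 0.0447 CPM, a rise of 2.01 ± 0.56 (adjusted p = 0.00149) that was 1.51 with an adjusted p of 0.0663 without replicate 1. The libraries of T12 and E0771 overlapped, and neighbouring models in the order of Ms4a1 were not told apart in any of 12 pairs. The model 2153 followed at 0.0825 ± 0.0586 CPM (n = 7), and its rise of 1.08 ± 0.43 (adjusted p = 0.0301) was lost without replicate 1 (adjusted p = 0.115) or replicate 3 (adjusted p = 0.163), and against BALB/c models alone (adjusted p = 0.0842). Ms4a1 fell in 2225 (by 1.78 on the log2 scale, adjusted p = 0.00748), MMTV-PYMT (by 2.22, adjusted p = 0.0274) and 2336 (by 3.16, adjusted p = 0.00311). The 5 libraries of 2336 held a single count among them, in replicate 5. Without that library Ms4a1 was at 0 throughout 2336, where a fitted difference is no bound. The falls of 2225 and MMTV-PYMT were then not called, but a fit with such a model in the reference cannot decide them. The call in MMTV-PYMT was also lost without its replicate 2, 4 or 5 (adjusted p of 0.0741, 0.0767 and 0.10), and against FVB models alone (-1.18, adjusted p = 0.417). With limma on the authors' normalized values, the calls in E0771, 2153, MMTV-PYMT and 2336 were lost (adjusted p of 0.0505, 0.346, 0.135 and 0.130), so that among the models only the rise in T12 and the fall in 2225 passed under both tools. An antisense gene, 4930526L06Rik, overlaps Ms4a1 on chromosome 19 and averaged 0.0758 CPM in T12, and reads of the pair cannot be assigned without strand, which was not stated.

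Cd79a, a signalling chain of the B cell receptor, had 4.53, 2.36 and 2.43 CPM in the E0771 libraries, against 0.126 to 1.75 CPM as means of the other models. E0771 exceeded the others by 3.17 ± 0.29 (adjusted p = 6.46e-16). In 2225 the lowest, median and highest library had 0.889, 1.80 and 2.30 CPM, a rise of 2.28 ± 0.20 (adjusted p = 2.98e-16). No library of 2225 reached the lowest library of E0771, yet 2225 had the lowest Igkc of all models and next to no Ms4a1. The call for 2250 (0.670 ± 0.494 CPM, n = 11, 0.74 ± 0.22, adjusted p = 0.00273) was lost without replicate 7 (adjusted p = 0.0523). Cd79a fell in 2208 (by 0.65), MMTV-NEU (by 0.94), 9263 (by 1.11), KPB1-A (by 1.72) and MMTV-PYMT (by 1.82). The fall in KPB1-A was lost without either of its 2 libraries (adjusted p of 0.246 and 0.0693), where the 1 that remains is assumed to vary like the libraries of the other models. Set against FVB models alone, KPB1-A differed by -0.32 (adjusted p = 0.714), MMTV-PYMT by -0.46 (adjusted p = 0.497) and MMTV-NEU by 0.77 (adjusted p = 0.141), so within FVB none of the 3 models was told apart from the other 2 in Cd79a.

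Cd79b, the partner chain, was also highest in E0771, with 1.85, 7.64 and 1.95 CPM, a rise of 3.07 ± 0.34 (adjusted p = 1.48e-12). The rise was 2.06 (adjusted p = 6.09e-05) without replicate 2, whose 7.64 CPM stood far above the other 2 libraries. That library also had the highest T cell genes of the 3: Cd3e was at 12.3 CPM, against 2.73 and 3.74 CPM in replicates 1 and 3, and the 16 listed T cell genes summed to 216 CPM, against 74.0 and 76.4 CPM. Their part in the Cd79b value was not tested. Cd79b also rose in 2225 (1.13, 1.61 and 3.06 CPM as lowest, median and highest; 1.81 ± 0.24, adjusted p = 9.04e-10) and in 9263 (0.791, 1.54 and 1.87 CPM; 1.5 ± 0.28, adjusted p = 4.71e-06). Cd79a fell in 9263, so the 2 chains of the receptor went opposite ways there. Cd79b fell in 4T1, 2153, MMTV-NEU and MMTV-PYMT by 0.97 to 1.76, and the call in 4T1 (adjusted p = 0.0430) was lost without any 1 of its replicates 1 to 4, of 2224 replicate 1, E0771 replicate 2, KPB1-A replicate 1, MMTV-PYMT replicate 1 or T12 replicate 3 (adjusted p of 0.0518 to 0.107). Against FVB models alone, the falls in MMTV-NEU (-0.66, adjusted p = 0.267) and MMTV-PYMT (-1.03, adjusted p = 0.122) were not called.

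Pax5 was at similar levels in E0771 and T12. It had 2.02, 0.830 and 1.31 CPM in E0771 and 2.38, 0.970 and 0.802 CPM in T12, each 3.34 ± 0.49 above the other models (adjusted p of 1.73e-08 and 2.03e-08). Without its replicate 1, the difference of T12 was 2.70 (adjusted p = 2.51e-04). Only 4 of the 82 libraries reached 1 CPM: 2 of E0771, 1 of T12 and replicate 2 of MMTV-PYMT. The 5 libraries of MMTV-PYMT had 0.192, 1.57, 0.574, 0.143 and 0.0387 CPM, and their rise of 1.75 ± 0.49 (adjusted p = 0.00172) was 0.64 (adjusted p = 0.394) without replicate 2, 1.58 (adjusted p = 0.103) against FVB models alone and 0.87 (adjusted p = 0.174) with limma on the authors' normalized values. Pax5 fell in 2250 (by 1.26), 2208 (by 1.75), 9263 (by 1.89) and 2225 (by 2.65). In 9263 the fall was 2.97 on the log2 scale without replicate 1, and against BALB/c models alone those of 9263 (-1.36, adjusted p = 0.0672) and 2250 (-0.72, adjusted p = 0.210) were not called.

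Among these 4 B cell genes, E0771 rose in all 4 and T12 in Ms4a1 and Pax5 alone. In T12, Cd79a had 0.636, 0.416 and 0.683 CPM (0.55 ± 0.38, adjusted p = 0.242) and Cd79b 0.480, 0.617 and 1.11 CPM (0.50 ± 0.45, adjusted p = 0.386). Across the 82 libraries, Spearman's rho was 0.471 between Cd79a and Cd79b and 0.0541 between Ms4a1 and Cd79a, where the points share depth and the genes are often at a few counts.

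Pou2af1 had the most counts of all members, 125932 in all, and it was highest in 9263. The gene lies at chr9:51213708-51240080 on the plus strand (mm10, GENCODE M21). The 7 libraries of 9263 had 123, 39.5, 33.0, 37.4, 161, 176 and 152 CPM. The 5 libraries of 2336 had 76.0, 103, 74.1, 92.0 and 111.2 CPM. The lowest, median and highest library of 2225 had 29.4, 61.7 and 72.8 CPM, the 4 libraries of 2224 had 34.4, 48.3, 41.5 and 49.5 CPM, and the 2 of KPB1-A had 10.2 and 4.50 CPM. These 5 models were grouped by their Pou2af1 level. Their 28 libraries lay above the 54 of the other 8 models, which had 0 to 4.10 CPM with a median of 0.165. The gap was narrow, from 4.10 CPM in MMTV-PYMT replicate 4 to 4.50 CPM in KPB1-A replicate 2. How many of all genes part the libraries in such a way was not counted. The differences from the other models were 6.25 ± 0.27 for 9263 (adjusted p = 1.72e-32), 6.06 ± 0.28 for 2336 (adjusted p = 2.49e-31), 5.31 ± 0.25 for 2225 (adjusted p = 9.49e-31), 4.90 ± 0.28 for 2224 (adjusted p = 2.90e-25) and 2.12 ± 0.45 for KPB1-A (adjusted p = 6.19e-05). The value of KPB1-A was 1.41 (adjusted p = 0.115) without replicate 1, on its single other library with the spread of the other models, and 2.78 against FVB models alone.

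In the order of Pou2af1, no adjacent pair among 9263, 2336, 2225 and 2224 was told apart. KPB1-A stood apart on both sides, 2.56 ± 0.75 below 2224 (adjusted p = 0.00517) and 2.30 ± 0.61 above MMTV-PYMT (adjusted p = 0.00152). MMTV-PYMT had 1.09, 0, 0.888, 4.10 and 1.37 CPM and was not called (-0.37 ± 0.40, adjusted p = 0.478). The 7 models below it all fell: MMTV-NEU (0.819 ± 0.516 CPM, n = 8), T12 (0.523 ± 0.201 CPM, n = 3), E0771 (0.330 ± 0.0642 CPM, n = 3), 2153 (0.213 ± 0.140 CPM, n = 7), 2250 (0.177 ± 0.133 CPM, n = 11), 4T1 (0.0845 ± 0.0533 CPM, n = 5) and 2208 (0.0447 ± 0.0373 CPM, n = 12). T12 and E0771, the models with the most Ms4a1, Pax5 and Ighm, thus had under 1 CPM of Pou2af1 in every library. These falls are against the mean of the other 12 models, which includes those high in Pou2af1. The 5 models with high Pou2af1 averaged 0.00272 to 0.0696 CPM of Ms4a1.

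The genes most like Pou2af1 over the 82 libraries were its neighbours on chromosome 9. Gm684, named Colca2 in GENCODE, lies 30178 bases beyond it on the minus strand (chr9:51270258-51278569) and had a Spearman's rho of 0.866. The antisense gene 2010007H06Rik, which overlaps the end of Gm684, lies 38433 bases away and had 0.864. Prelp (0.844), which encodes an extracellular matrix protein, Kcnk4 (0.835), a potassium channel gene, and B3gntl1 (0.831) followed. After subtraction of the model means, Gm684 (0.603) and 2010007H06Rik (0.590) were still the 2 most alike, followed by Apobec1 (0.560), the RNA-editing cytidine deaminase, Nrg1 (0.558), a ligand of ERBB receptors, and Gng2 (0.544). These values are descriptions over libraries that share models and depth, and without strand the reads of Gm684 and 2010007H06Rik cannot be told apart where they overlap.

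Gm684 averaged 122 ± 58.9 CPM in 9263 (n = 7), 79.0 ± 8.55 in 2336 (n = 5), 40.8 ± 8.93 in 2225 (n = 10), 34.6 ± 16.5 in 2224 (n = 4) and 28.5 ± 11.5 in KPB1-A (n = 2), so the 5 models with the highest means were those of Pou2af1, in the same order. The next was MMTV-PYMT at 10.6 ± 14.8 CPM (n = 5). Other genes within 150 kb did not follow alike. Layn, on the far side of Pou2af1, had a rho of 0.133 and reached 46.1 CPM, while 1810046K07Rik, beyond 2010007H06Rik, had a rho of 0.709 but never passed 0.837 CPM. Among the epithelial genes, Krt5, a keratin of basal epithelium, averaged 1206 ± 288 CPM in KPB1-A, 758 ± 508 in 2336, 701 ± 64.7 in 9263, 371 ± 182 in 2225 and 167 ± 111.0 in 2224. Those are the same 5 models, with MMTV-PYMT next at 103 ± 157 CPM and the other 7 models at 0.225 to 19.9 CPM. Other listed epithelial genes did not all follow alike. Krt14 was highest in 9263, 2225, KPB1-A and 2224, with means of 173 to 378 CPM. In 2336 it averaged 32.7 ± 11.8 CPM, below MMTV-PYMT (96.8 ± 144 CPM) and 4T1 (45.6 ± 24.8 CPM). Epcam was highest in MMTV-NEU, at 1613 ± 236 CPM. The part of epithelial cells in the Pou2af1 level was not tested. In humans, the relatives of Pou2af1 that include COLCA2 encode coactivators of POU2F3, the factor of tuft cells. Pou2f3, which was chosen after its values were seen, averaged 9.23 ± 7.93 CPM in 9263, 6.15 ± 4.08 in 2224 and 3.27 ± 1.44 in 2225, but 0.519 ± 0.214 in 2336 and 0.766 ± 0.356 in KPB1-A, both below the 1.11 ± 1.13 CPM of MMTV-PYMT.

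**Figure D2:**
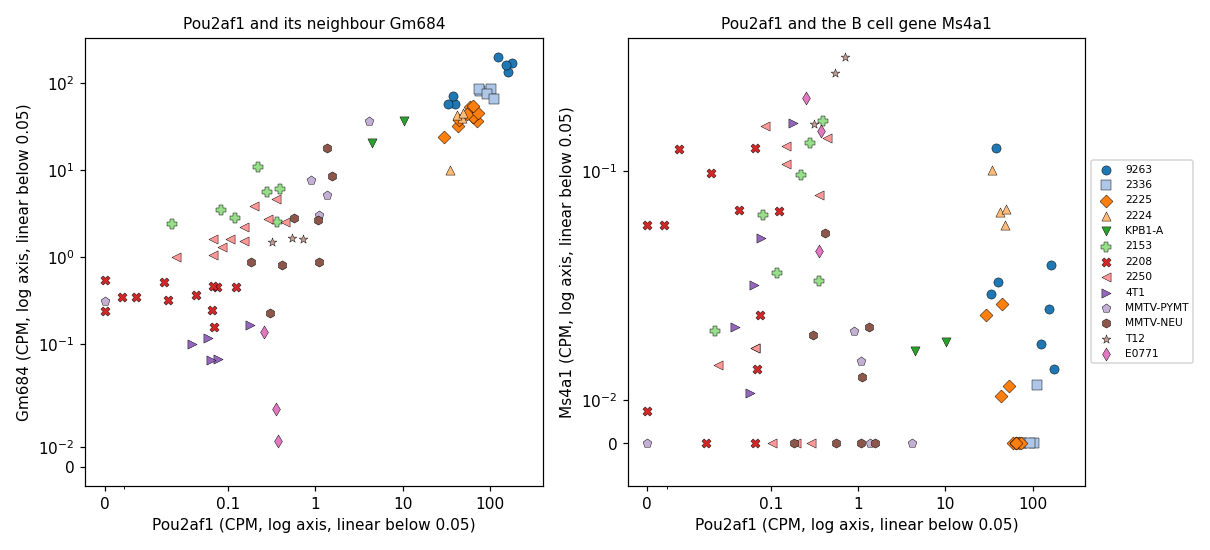
Pou2af1 against its chromosome 9 neighbour Gm684 (left) and against the B cell gene Ms4a1 (right), 1 point per library with a symbol for each model (CPM, log axes, linear below 0.05). The 28 libraries of 9263, 2336, 2225, 2224 and KPB1-A, models grouped by their Pou2af1 level, lie at 4.50 to 176 CPM of Pou2af1. The other 54 lie at 4.10 CPM or less.

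Within 9263 the libraries fell into a low and a high set for Pou2af1 that other genes shared. Replicates 2, 3 and 4 had 33.0 to 39.5 CPM of Pou2af1 and 7.76, 12.4 and 9.72 CPM of Ighm, while replicates 1, 5, 6 and 7 had 123 to 176 CPM of Pou2af1 and 1.51, 0.403, 0.491 and 1.07 CPM of Ighm. Adgre1, a macrophage gene, was at 29.2, 36.1 and 43.9 CPM in replicates 2, 3 and 4 and at 0.569 to 3.14 CPM in the rest. Cd3e, a T cell receptor chain, was at 0.603, 0.868 and 0.710 CPM in the same 3 libraries and at 0.0233 CPM or less in the rest. The sum of the 16 listed T cell genes did not split this way, with 93.5, 84.7 and 115.9 CPM in replicates 2, 3 and 4 and 57.6 to 97.1 CPM in the rest. Most of that sum in 9263 was Lck and Ccr7, whose mean levels are given at the end. The sum was 97.1 and 68.3 CPM in replicates 5 and 6, where Cd3e was at 0. How far the sum follows T cells in this model was not tested. Gm684 went with Pou2af1, at 57.1 to 72.0 CPM in replicates 2 to 4 and 136 to 200.2 CPM in the others. The labels name no batch, but the titles of replicates 2, 3 and 4 carry consecutive numbers and those of the high set carry others, so the 2 sets and a grouping by title number cannot be told apart. The part of immune cells in the 2 sets was not tested.

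Ighm, the constant part of IgM, had the highest median of the members and passed 1 CPM in 76 of 82. E0771 led with 32.5, 38.4 and 13.9 CPM, a rise of 2.40 ± 0.42 (adjusted p = 1.03e-06), and T12 followed with 15.2, 11.3 and 27.7 CPM, a rise of 1.69 ± 0.45 (adjusted p = 0.00121). The libraries of the 2 models overlap, and the rise of T12 was 1.25 (adjusted p = 0.0755) without replicate 3. The other 11 models had means of 2.08 to 8.52 CPM. Ighm fell in 2225 (2.26 ± 1.29 CPM, n = 10), by 1.57 on the log2 scale (adjusted p = 1.32e-04), and in 2153 (3.38 ± 2.43 CPM, n = 7), by 0.94 (adjusted p = 0.0443). The call in 2153 was lost without any 1 of its replicates 1, 2, 5, 6 and 7, of 2224 replicates 1 and 2, E0771 replicate 2, KPB1-A replicate 2, MMTV-PYMT replicates 1 and 5 or T12 replicate 3 (adjusted p of 0.0502 to 0.115), and against BALB/c models alone (adjusted p = 0.0587). KPB1-A had the lowest mean, 2.08 ± 1.64 CPM (n = 2), and was not called (adjusted p = 0.0840).

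Igkc, the constant part of most mouse light chains, was highest in MMTV-NEU. Its 8 libraries had 11.6, 0.139, 77.2, 0.576, 0.517, 52.9, 90.2 and 33.2 CPM, a rise of 5.02 ± 0.47 (adjusted p = 2.28e-15), or 3.34 (adjusted p = 2.97e-05) with limma on the authors' normalized values. T12 had 9.48, 6.96 and 25.0 CPM (3.65 ± 0.60, adjusted p = 3.86e-07), or 2.90 (adjusted p = 0.00140) without replicate 3. E0771 had 17.6, 5.85 and 7.01 CPM (3.17 ± 0.63, adjusted p = 1.32e-05), or 2.51 (adjusted p = 0.00689) without replicate 1. The remaining 10 models had means of 0.147 to 1.61 CPM, and E0771 was told apart from the next, MMTV-PYMT (2.63 ± 1.07, adjusted p = 0.0306), whose own mean of 1.61 CPM came from 6.85 CPM in 1 of 5 libraries. Igkc fell in 9263 (by 2.15, adjusted p = 0.0128) and in 2225 (by 3.39, adjusted p = 2.68e-05), and against BALB/c models alone the fall of 9263 was not called (-1.32, adjusted p = 0.123).

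Jchain followed Igkc in MMTV-NEU, with 4.23, 0.215, 41.1, 0.115, 0.705, 5.01, 5.40 and 2.38 CPM in replicates 1 to 8. The rise of 4.90 ± 0.36 (adjusted p = 3.17e-20) was 3.34 (adjusted p = 9.16e-15) without replicate 3 and 3.15 (adjusted p = 2.44e-08) with limma on the authors' normalized values. T12 had 2.33, 1.73 and 3.53 CPM, a rise of 3.22 ± 0.48 (adjusted p = 3.69e-08). E0771 had 1.30, 0.375 and 0.254 CPM and was not called (1.08 ± 0.62, adjusted p = 0.134), so that this model was high in Ighm and Igkc without a called rise of the chain that joins antibody polymers. Jchain fell in 2250 (by 1.52, adjusted p = 0.00368; -1.01 with an adjusted p of 0.0534 against BALB/c models alone) and in 2224 (by 1.78, adjusted p = 0.0489), and the call in 2224 was lost without any 1 of its 4 libraries, of 2336 replicates 1, 2 and 4, 4T1 replicates 3 and 4, E0771 replicate 1, KPB1-A replicate 2, MMTV-PYMT replicate 5 or T12 replicates 1 and 3 (adjusted p of 0.0503 to 0.135). The genes most like Jchain over the 82 libraries were Ighg2c (Spearman's rho of 0.660), Igkc (0.608), Igkv6-25 (0.568), Map3k8 (0.541) and Iglc2 (0.532). After subtraction of the model means they were Igkc (0.754), Iglc2 (0.581), Igha (0.577), Slc36a2 (0.567) and Ctcflos (0.556).

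Mzb1 stayed below 1 CPM in every library. T12 had 0.204, 0.164 and 0.694 CPM, a rise of 1.92 ± 0.52 (adjusted p = 0.00140) that was 0.98 (adjusted p = 0.280) without replicate 3. In 9263 the lowest and highest of 7 libraries had 0.172 and 0.451 CPM, a rise of 1.79 ± 0.39 (adjusted p = 6.06e-05), although Jchain (-1.06 ± 0.55, adjusted p = 0.0955) was not called and Igkc fell there. MMTV-NEU, the model with the most Jchain and Igkc, had 0.0943 ± 0.107 CPM of Mzb1 (n = 8; -0.12 ± 0.49, adjusted p = 0.881). Mzb1 fell in 2225 (by 1.24, adjusted p = 0.0192), and no pair of neighbouring models was told apart. The gene SPATA24 overlaps Mzb1 on the same strand, so reads can be shared between them.

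Igkc ranged more widely within MMTV-NEU, from 0.139 to 90.2 CPM, than within any other model. Replicates 2, 4 and 5 had under 1 CPM of both Igkc and Jchain, while replicates 1, 3, 6, 7 and 8 had 11.6 to 90.2 CPM of Igkc and 2.38 to 41.1 CPM of Jchain. Igha, the constant part of the IgA heavy chain, had 19.3, 0.418, 130.04, 0.184, 0.658, 30.6, 9.95 and 12.6 CPM and split the libraries the same way. Ighm did not, with 4.45 to 16.7 CPM in all 8, and it was not called (0.51 ± 0.34, adjusted p = 0.181). Ms4a1 stayed low in all of them, at most 0.0490 CPM and at 0 in 4 libraries. Tnfrsf17, the plasma cell receptor BCMA, did not pass the filter on low counts and reached 0.0575 CPM. Pigr, the epithelial receptor of IgA and IgM polymers, was at 88.8 to 341 CPM in MMTV-NEU, both where Igkc was high and where it was low, and means of 363 ± 151 CPM in 2250 and 443 ± 717 CPM in MMTV-PYMT were not lower. Replicate 3, the library with the most Jchain and Igha, also had 469 CPM of Glycam1, a gene of milk and of lymph node vessels, against 0 to 6.10 CPM in the other 7. Its part in the antibody genes was not tested. The labels name no batch, but the titles form runs of consecutive numbers. Replicates 4 and 5 are a run low in Igkc, replicates 6 to 8 a run high in it, and replicates 1 to 3 hold both. Replicates 6 to 8 also had the smallest totals, 17.2 to 38.7 M counts. The part of title number and depth in this split was not tested.

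**Figure D3:**
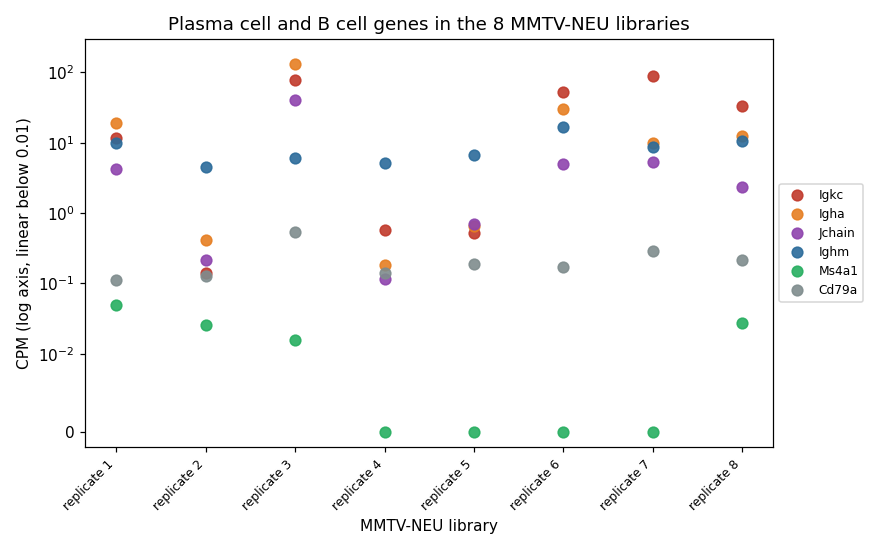
Igkc, Igha, Jchain, Ighm, Ms4a1 and Cd79a in the 8 MMTV-NEU libraries (CPM, log axis, linear below 0.01), 1 point per gene and library. Replicates 2, 4 and 5 are below 1 CPM for Igkc and Jchain, while Ighm stays between 4.45 and 16.7 CPM in all 8.

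The make-up of the heavy chains differed between models. Shares are of heavy chain constant counts per length of each gene, in percent. In MMTV-NEU, Igha took 53.7% in replicate 1, 92.1% in replicate 3 and 44.0% in replicate 6. Replicate 7 was led by IgG genes with 69.1%, of which Ighg2b took 34.8% and Ighg1 20.8%, and replicate 8 was split between Ighg3 with 34.2%, Ighm with 32.1% and Igha with 27.4%. The 3 libraries low in Igkc had 87.8%, 83.5% and 83.5% Ighm. The heavy chain gene with the largest share was thus Igha in replicate 3, Ighg2b in replicate 7 and Ighg3 in replicate 8.

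T12 kept Ighm as the largest share in each library, with 60.4%, 61.8% and 52.3%, beside 20.2%, 21.4% and 4.58% Igha and 15.2%, 14.2% and 41.4% for the IgG genes together. E0771 had 66.2%, 85.0% and 56.5% Ighm and at most 0.909% Igha. The rest of E0771 was IgG: Ighg2c took 28.1%, 12.04% and 3.10%, and Ighg1 took 35.5% in replicate 3, against 2.23% and 0.345% in replicates 1 and 2. Ighg2c is the gene of the C57BL/6 reference at a place where BALB/c mice carry Ighg2a, so its level in the other strains depends on how their reads align. In 9 of the other 10 models the median share of Ighm was 89.6% to 95.6%, and in KPB1-A it was 73.3%. All 8 MMTV-NEU libraries, but none of the 10 libraries of 2225, had 200 heavy chain counts or more, and below that number the shares are coarse.

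Per length, the light chain constant genes were at 1.37, 1.43 and 1.75 times the heavy chain genes in T12, at 1.31, 0.476 and 1.02 times in E0771, and at 0.115 to 6.07 times in MMTV-NEU. Medians of the other 10 models were 0.257 to 0.875. Igkc alone exceeded Ighm per kilobase in 5 of 8 MMTV-NEU, 3 of 3 T12 and 2 of 3 E0771 libraries, in 6 libraries of 2153, 2208, 4T1, KPB1-A and MMTV-PYMT, and in none of 2224, 2225, 2250, 2336 and 9263. Kappa made up 83.5% to 99.8% of light chain counts in MMTV-NEU, 94.1% to 97.3% in T12 and 96.4% to 98.96% in E0771.

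**Figure D4:**
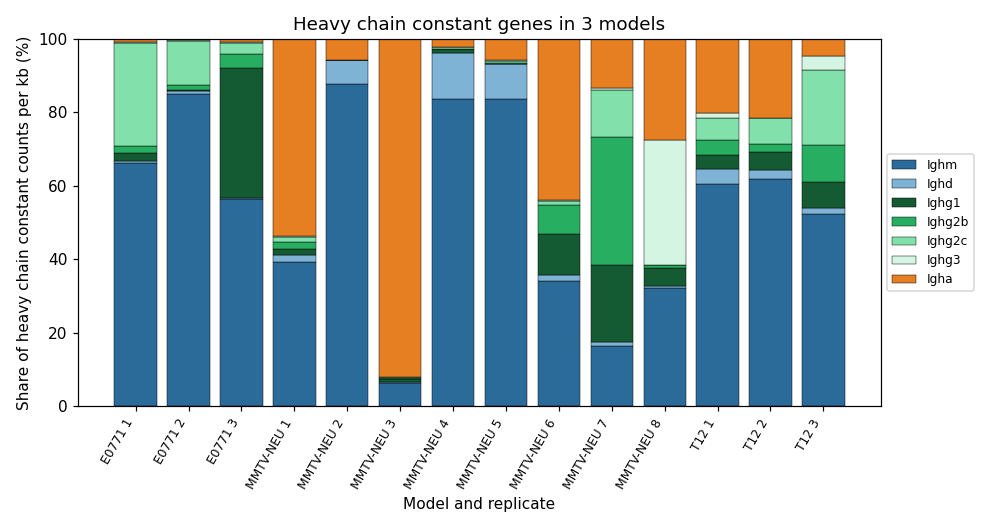
Share of heavy chain constant counts per length (percent) by gene, for each library of MMTV-NEU, T12 and E0771. Igha leads in MMTV-NEU replicate 3 with 92.1%, the IgG genes in replicate 7 with 69.1%, and Ighm in all 3 libraries of T12 and of E0771.

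The variable segments, of which the table holds 346, reached 1000 counts in 2 libraries. In MMTV-NEU replicate 3, 131 segments had a count and the leading one, the kappa segment Igkv10-96, took 7.61% of them. In T12 replicate 3, 116 segments had a count and the same Igkv10-96 took 30.2%. Many segments were therefore in use in both libraries, with a larger share of 1 segment in T12 replicate 3. Among libraries with fewer counts, Igkv8-16 took 24.1% of 381 counts in MMTV-NEU replicate 8, and Ighv1-76 took 37.9% of 253 counts in E0771 replicate 3; both were chosen after their values were seen.

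Set against all genes, the members rose in E0771 and T12 more often than all genes did. In E0771, 6 of 9 rose and 1 fell, where 29.4% of all genes were called higher and 26.9% lower, and the median difference of the members was 2.40 against -0.11 over all genes. In T12, 6 of 9 rose and 1 fell, with a background of 24.4% higher and 23.8% lower, and the medians were 1.92 and -0.09. The single fall in both was Pou2af1, against a mean that includes the high levels of 9263, 2336, 2225, 2224 and KPB1-A. Among the other models, T12 (0.523 CPM) and E0771 (0.330 CPM) lay below MMTV-PYMT and MMTV-NEU. They lay above 2153 (0.213 CPM), 2250 (0.177 CPM), 4T1 (0.0845 CPM) and 2208 (0.0447 CPM), where no adjacent models were told apart. In MMTV-NEU, 2 rose and 3 fell (background of 34% and 28.4%, together 62.4%), with medians of -0.12 and -0.02. In 2225, 3 rose and 5 fell (background of 34.2% and 26.8%), with medians of -1.24 and 0.02, and in 9263, 3 rose and 3 fell (background of 32.5% and 21.9%), with medians of -0.40 and 0.05.

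In the remaining 8 models, 2 to 4 of the 9 members were called. In 2153, 1 rose and 3 fell (29.4% and 23.6% of all genes, 53.1% in either direction), in 2250, 1 and 3 (32.1% and 27.7%, together 59.8%), and in MMTV-PYMT, 1 and 3 (31% and 20.5%, together 51.5%). In 2208, 3 fell (24.7%) and none rose (29.4%), and in 4T1, 2 fell (23.6%) and none rose (25.5%, together 49.1%). In each of 3 models 1 member rose and 1 fell: 2224 (24% and 14.8%, together 38.7%), 2336 (30.2% and 25.4%) and KPB1-A (24.9% and 14.4%, together 39.2%). With 9 members, none of these counts is read as a result about them. Over the orders of all 9 members, 5 of 108 neighbouring pairs of models were told apart, so most neighbours in an order did not differ beyond their spread. Neighbours were picked by each member's own order, which favours small differences. The 51.9% of all genes called in the same pairs is therefore no like comparison. Over all 78 pairs of models, from 18 (Mzb1) to 64 (Pou2af1) were told apart per member.

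Other lists of cell types give the setting of the rise in E0771 and T12. Of 20 further B cell genes, 11 rose and 3 fell in E0771 and 10 rose and 3 fell in T12. Cr2, the complement receptor of mature B cells, was at 0.288, 0.126 and 0.423 CPM in T12, with means of 0.00545 to 0.111 CPM elsewhere (2.99 ± 0.57, adjusted p = 6.75e-06). Cd72, a B cell coreceptor, was at 159 ± 71.0 CPM in E0771 (n = 3), against 37.1 ± 14.2 CPM in 2250, the next model (3.77 ± 0.24 over the others, adjusted p = 5.94e-23). Of 13 tested plasma cell genes, 8 rose and 3 fell in E0771 and 5 rose and 4 fell in T12. Among all genes, 29.4% rose and 26.9% fell in E0771, and 24.4% rose and 23.8% fell in T12. The plasma cell count of T12 is thus no result about that list. Of 11 tested antibody constant genes, 7 rose in E0771, 10 in T12 and 8 in MMTV-NEU, and none fell in any of the 3. In MMTV-NEU, 34% of all genes rose. The antibody list includes the members Ighm and Igkc, so their values are counted in both.

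Genes of other immune cells rose in the same tumours. Of 16 T cell genes, 15 rose in E0771 and 10 in T12, of 8 natural killer genes 7 and 8, and of 8 macrophage genes 6 and 8. Among all genes, 29.4% rose in E0771 and 24.4% in T12. The 16 T cell genes summed to 74.0 to 216 CPM in E0771 and 33.8 to 36.5 CPM in T12, against a median of 18.9 CPM over all libraries. The 8 macrophage genes summed to 1794 to 3240 CPM and 5086 to 6008 CPM, against a median of 708 CPM. The 7 epithelial genes were low, at 374 to 465.6 CPM in E0771 and 235 to 338 CPM in T12, against a median of 3149 CPM, and none of them was higher there while 5 and 7 fell. Whether the members rose beyond the share of immune cells as a whole was not tested. In MMTV-NEU the picture differed: 6 of 8 macrophage genes and 6 of 6 neutrophil genes fell, and none of these 2 lists rose. Of 16 T cell genes, 2 rose and 4 fell there. Among all genes, 34% rose and 28.4% fell in MMTV-NEU, so the T cell falls were near that share. In 4T1, 14 of 16 T cell genes, 7 of 8 natural killer genes and 8 of 8 macrophage genes rose, yet none of the 9 members did. Among all genes, 25.5% rose in 4T1.

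The listed genes with the highest levels were mostly expressed outside B cells as well, and their order across models was not that of the members. Among B cell genes, Cd55, a complement regulator, led in MMTV-NEU at 109.5 ± 23.6 CPM (n = 8) and MMTV-PYMT at 83.2 ± 12.7 CPM (n = 5), Blnk, an adaptor of the B cell receptor, in 2224 at 48.2 ± 12.5 CPM (n = 4), and Ly6d in KPB1-A at 42.8 ± 40.2 CPM (n = 2). Among plasma cell genes, Xbp1, a factor of the secretory pathway that epithelium also uses, reached 1279 ± 270 CPM in MMTV-NEU (2.65 ± 0.09, adjusted p = 1.41e-40) and 1245 ± 436 CPM in MMTV-PYMT. Sdc1, the surface proteoglycan that marks plasma cells and epithelium, was highest in 2224 at 511 ± 186 CPM and lowest in MMTV-NEU at 61.0 ± 10.9 CPM (-2.03 ± 0.15, adjusted p = 3.16e-20). Txndc5 and Edem2, genes of protein folding and disposal, were highest in 2250 at 328 ± 31.4 and 87.6 ± 15.3 CPM. Among germinal centre genes, S1pr2 was highest in MMTV-NEU at 110.1 ± 25.5 CPM, Bcl6 in MMTV-PYMT at 73.4 ± 18.4 CPM, Cd40 in E0771 at 55.4 ± 5.69 CPM and Mybl1 in KPB1-A at 46.3 ± 4.14 CPM.

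In the list of B cell factors and follicle chemokines, 3 genes were each high in 1 model. Tnfsf13b encodes BAFF, the survival factor of B cells. It was at 278 ± 58.1 CPM in 2336 (178 to 323 CPM, n = 5), against 4.74 ± 1.23 CPM in 2208, the next model, and 2336 exceeded the others by 7.22 ± 0.19 (adjusted p = 4.18e-47). In the same tumours Ms4a1 had 1 count in 5 libraries, Ighm had 4.52, 5.65, 3.08, 6.24 and 2.84 CPM and Igkc had 0.344, 0.680, 0.462, 1.11 and 0.272 CPM, and neither antibody gene was called. Cxcl12, a chemokine that retains plasma cells in bone marrow, was at 728 ± 149 CPM in T12 (n = 3), against 174 ± 114 CPM in 2224, the next (5.27 ± 0.39, adjusted p = 1.13e-19). Ccl21a, a chemokine of lymphoid tissue, averaged 28.5 ± 16.5 CPM in 2224 (n = 4), where no antibody gene rose, against 1.26 ± 0.55 CPM in E0771, the next (7.14 ± 0.78, adjusted p = 3.88e-12).

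Other listed genes, chosen after their values were seen, were also high in models with few antibody counts. Derl3, a gene of protein disposal in secretory cells, averaged 78.4 ± 15.4 CPM in 2336 (n = 5; 4.62 ± 0.19, adjusted p = 4.26e-35) and 47.6 ± 9.96 CPM in 2225 (n = 10), against 0.169 ± 0.0128 CPM in E0771, and MMTV-NEU was between them at 31.4 ± 21.2 CPM (n = 8). Tnfrsf13c, the BAFF receptor, averaged 11.2 ± 7.51 CPM in KPB1-A (n = 2; 3.61 ± 0.30, adjusted p = 1.55e-17) and 6.74 ± 2.93 CPM in 9263 (n = 7; 2.82 ± 0.20, adjusted p = 1.06e-20). KPB1-A and 2225 had the 2 lowest mean levels of Ighm among the 13 models.

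**Figure D5:**
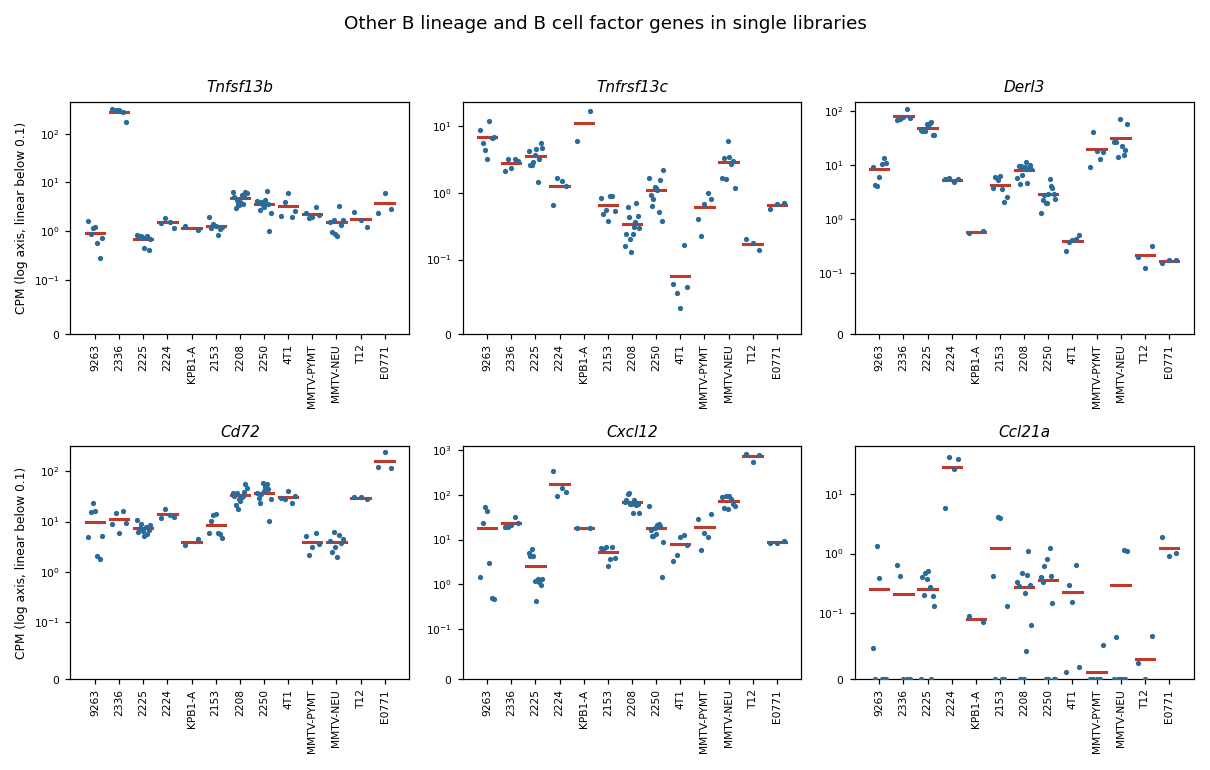
Tnfsf13b, Tnfrsf13c, Derl3, Cd72, Cxcl12 and Ccl21a in every library of the 13 models (CPM, log axis, linear below 0.1). Points are libraries and bars are model means. Tnfsf13b lies between 178 and 323 CPM in the 5 libraries of 2336, Cxcl12 between 558 and 831 CPM in the 3 of T12, and Cd72 between 116 and 241 CPM in the 3 of E0771.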

How the data were processed

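Tumours were cryopreserved and homogenized, RNA was taken with RNeasy Mini columns, and libraries were made with the TruSeq mRNA kit, per the labels' protocols. The deposited expected counts are estimated per gene. The submitters' processing notes name mm10 and the tools STAR, SAMtools, Picard and Salmon; versions, strand and annotation are not given in the sources used here. A further table holds signal normalized by the authors (upper-quartile scaling, judging from the values) and served 1 alternative. The labels call the libraries of a model different tumours but name no animal, so p-values measure the spread between these libraries.

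After rounding, edgeR 4.0.16 (R 4.3.3) was used with filterByExpr on the models (counts of at least 10, totals of at least 15), TMM factors, and a robust quasi-likelihood fit of 1 mean per model over 82 libraries. Contrasts were the F test among 13 models, each model minus the mean of the other 12 on the log2 scale (which can differ in sign from arithmetic means), and neighbouring models in the order of each member's mean CPM. P-values were Benjamini-Hochberg adjusted over 22847 genes. Of these, 2981 (13.0%), none a member, were at 0 in all libraries of some model, where a fitted difference is no bound. The step was tested on simulated data. Spearman's rho used log2 CPM (prior count 2). Shares of antibody genes used counts per exonic kilobase of GENCODE M21. Floors of 3 counts cover counting error only.

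Alternatives were DESeq2 1.42.0, its size factors, no filter, limma 3.58.1 on log2 of the authors' normalized values, models of the same strain as reference, and leaving out 1 library. Named genes were the members, up to 4 of each list with the highest mean level, the 5 most like Ms4a1, Jchain and Pou2af1, and the leading variable segments. Cr2, Cd3e, Adgre1, Pou2f3, Derl3, Tnfrsf13c, Igkv14-111 and the segments of libraries under 1000 counts were picked with their values known. The members and lists were chosen with earlier results of these data known, and some listed genes are not reported here.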

Additional observations from a re-analysis of the deposited data

Results flagged for a closer look

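Within models of 4 to 10 libraries, 72 sets of values of a member were searched for a library far from the rest by Dixon's criterion, and 4 were found; chance gives about 1 in 20. Ms4a1 was at 0.0136 CPM in 2336 replicate 5 and at 0 in the other 4 libraries. Ms4a1 was at 0.131 CPM in 9263 replicate 4, against 0.0172 to 0.0417 CPM in the other 6 libraries. Cd79a was at 1.20 CPM in 2336 replicate 2, against 0.285 to 0.429 CPM in the other 4. Mzb1 was low in 2224 replicate 3, at 0.0616 CPM, against 0.0736 to 0.0760 CPM in the other 3. E0771 and T12, with 3 libraries each, were not searched, so the search says nothing about their rises. No library of MMTV-NEU was flagged, although Jchain was at 41.1 CPM in its replicate 3, against at most 5.40 CPM in its other libraries.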

How the results depend on the processing

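Of the 56 called member differences, all 56 kept their call and direction with DESeq2 and with its size factors, 53 without the filter, and 49 with limma on the authors' normalized values. Against models of the same strain, 35 of 49 kept it, 13 were lost and 1 reversed: Cd79a in MMTV-NEU was 0.77 (adjusted p = 0.141) in place of -0.94. Leaving out 1 library lost 13 of the 56 on some library, and 34 kept their call under every alternative. Leaving out the libraries of models with over 5 libraries was added after seeing the data.

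Members called per model moved by over 1.5 times against the same strain in 2153 (2 in place of 4), 2224 (1 in place of 2), 2250 (2 in place of 4) and MMTV-PYMT (1 in place of 4), with limma in 2224 and 2336 (1 in place of 2), and without the filter in 2224 and 4T1 (1 in place of 2). Leaving out 1 library gave 2 to 4 in 2153, 3 to 4 in 2208, 1 to 2 in 2224, 7 to 8 in 2225, 3 to 5 in 2250, 2 to 2 in 2336, 1 to 4 in 4T1, 6 to 6 in 9263, 6 to 7 in E0771, 0 to 2 in KPB1-A (on 1 library, assumed to vary like the other models), 5 to 5 in MMTV-NEU, 2 to 4 in MMTV-PYMT and 5 to 7 in T12. All 9 members differed among models throughout, and 4 to 6 neighbouring pairs were told apart. The causes were not tested. Of 61 differences not called, 19 changed sign and 15 passed under some alternative.

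No paired analysis was possible because the labels carry no replicate numbers shared between models. Depth limits Ms4a1, Mzb1 and Pax5 most, since 3 counts stand for up to 0.200 CPM.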

Other observations

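One kappa variable segment, Igkv14-111 (chr6:68256389-68256869, plus strand, mm10), led the variable segments of many libraries. It took the largest share of variable segment counts in 32 of 82 libraries: all 11 of 2250, 10 of 12 of 2208, all 5 of MMTV-PYMT, 2 each of 2153 and 2224, and 1 each of 2336 and MMTV-NEU. Its share reached 98.5% of 67 counts in 2250 replicate 10 and 99.2% of 130 counts in MMTV-PYMT replicate 3. The mean level was 1.52 ± 1.22 CPM in MMTV-PYMT (n = 5), 0.833 ± 0.447 in 2250 (n = 11), 0.388 ± 0.472 in MMTV-NEU (n = 8) and 0.158 ± 0.0952 in 2208 (n = 12), and it was at 0 in all libraries of 2225 and E0771. In MMTV-NEU, the model with the most Igkc, its share was 1.79% to 16.7%. In the 5 libraries of MMTV-PYMT the segment had 0.422, 1.91, 3.37, 0.429 and 1.48 CPM, and Igkc had 0.805, 0.0224, 0.0522, 0.306 and 6.85 CPM. In replicates 2, 3 and 4 the segment thus exceeded, in CPM, the constant gene it joins in a finished light chain message. The segment has 368 exonic bases and Igkc 532, so per length the excess was larger. The same held in CPM for replicates 3, 6, 8, 10 and 11 of 2250, with 1.15 against 0.0521 CPM in replicate 10.

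The genes most like Ms4a1 over the 82 libraries were Dpysl2 (Spearman's rho of 0.635), Ccr2 (0.629), a chemokine receptor of monocytes that averaged 113 CPM in T12, AI839979 (0.626), Mefv (0.625) and Siglecg (0.623), an inhibitory receptor of B cells that averaged 2.17 CPM in T12. After subtraction of the model means they were Fam181b (0.482), Ikbip (0.440), Cdk15 (0.433), Gm44215 (0.432) and Gm14046 (0.431). Between members, rho was 0.704 for Ighm and Igkc (0.484 after subtraction) and 0.608 for Jchain and Igkc, whereas Pou2af1 had -0.262 to 0.487 with the other 8. These are descriptions over libraries that share models and depth.

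In KPB1-A, 4 of 20 B cell genes rose and 2 fell, and 4 of 10 germinal centre genes rose and 1 fell, where 24.9% of all genes rose and 14.4% fell, so the B cell count is no result about that list. In 2225, 9 of 13 plasma cell genes fell and 3 rose, where 26.8% of all genes fell and 34.2% rose. Of 11 antibody constant genes, which include the members Ighm and Igkc, 7 fell there and none rose. In 9263, Lck, a kinase of T cells, averaged 56.6 ± 11.1 CPM (n = 7; 2.92 ± 0.15, adjusted p = 1.15e-28) and Ccr7 19.6 ± 7.39 CPM, while Cd3e was at 0 in 2 of the 7 libraries.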
